A study of Mus musculus with 4 samples.

Results

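The Schlafen gene cluster of mouse chromosome 11 was examined for DNA methylation in 60M-GS and 5M-GS cells. The 8 genes Slfn5, Slfn9, Slfn8, Slfn2, Slfn1, Slfn4, Slfn3 and Slfn14 were taken by symbol, out of 49554 annotated genes, and lie in this order on the chromosome. With flanks of 10 kb they fill 355 kb (mm10, chr11:82941349-83296726), which also hold 17 other annotated genes in whole or in part. The cluster was chosen by the large methylation difference already seen at the Slfn4 promoter between these same tables. The levels at Slfn4 are therefore a description and carry no test, and because the other genes were read in the same contrast their calls are given as descriptions too.

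Germline stem (GS) cells are cultured mouse spermatogonial stem cells, the self-renewing cells of the testis from which sperm arise. 60M-GS and 5M-GS cells had been grown for about 60 and about 5 months in medium with human FGF2, rat GDNF and fetal bovine serum. Both came from testis of wild type animals of the Green strain, named C57BL/6 Tg14(act-EGFP)OsbY01, which carries an act-EGFP transgene, on a DBA/2 background. DNA methylation was read by bisulfite sequencing of the whole genome, with adaptors added after the bisulfite step (PBAT), from 2 replicates at each age that are pooled in 1 table, so the spread between replicates cannot be given. The labels do not say whether both ages belong to 1 culture line, and a methylation table holds no expression with which to check the cell type.

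Schlafen proteins are a vertebrate family whose genes in mouse are clustered and mostly induced by interferon in cells of the immune system. They share a core region at the amino-terminal side, and the longer members add a helicase-like region. Slfn1 and Slfn2 encode short proteins, Slfn3 and Slfn4 proteins of intermediate length, and Slfn5, Slfn8, Slfn9 and Slfn14 long ones. Slfn1 slows T cell growth when overexpressed, and Slfn2 keeps T cells and monocytes quiescent. Methylation at a promoter is generally associated with low activity of that promoter, whereas methylation inside genes is the usual state of mammalian DNA. No expression was measured in these tables.

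The level of a region is its methylated calls as a percent of all its calls, summed over CpGs that had 5 calls or more at both ages, and intervals are 95% intervals for counting error only. A region was called when the level differed by at least 20 percentage points and Fisher's exact test passed an adjusted p of 0.05 over all regions of its kind in the genome. Such a test compares 2 pooled libraries. The tables held 471693518 calls for 60M-GS and 468121185 calls for 5M-GS. In the Schlafen window 2228 of 2470 listed CpGs (90.2%) reached this depth, as did 90.0% over the genome. The median depth there was 22 calls per CpG in 60M-GS, as in 5M-GS.

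Promoter sequences of 4 of the genes show where the cytosines in question lie. They are taken from RefSeq on GRCm38.p6, run from 250 bases before to 50 bases after an annotated start, and are written 5′ to 3′ with each CpG in capitals. Slfn4 is shown because its CpGs differ most between the tables, Slfn3 because it is the next gene downstream, and Slfn9 and Slfn8 because their promoters are alike in sequence but not in methylation. The positions are chr11:83174936-83175235 (plus strand) for Slfn4, chr11:83191080-83191379 (plus strand) for Slfn3, chr11:82991781-82992080 (minus strand) for Slfn9 and chr11:83020761-83021060 (minus strand) for Slfn8.
Slfn4: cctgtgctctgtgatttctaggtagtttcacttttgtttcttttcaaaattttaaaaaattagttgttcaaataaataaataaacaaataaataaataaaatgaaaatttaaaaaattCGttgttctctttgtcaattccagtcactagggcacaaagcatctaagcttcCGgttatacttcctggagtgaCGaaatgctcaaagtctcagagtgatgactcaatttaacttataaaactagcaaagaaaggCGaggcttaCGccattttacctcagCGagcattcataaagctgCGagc
Slfn3: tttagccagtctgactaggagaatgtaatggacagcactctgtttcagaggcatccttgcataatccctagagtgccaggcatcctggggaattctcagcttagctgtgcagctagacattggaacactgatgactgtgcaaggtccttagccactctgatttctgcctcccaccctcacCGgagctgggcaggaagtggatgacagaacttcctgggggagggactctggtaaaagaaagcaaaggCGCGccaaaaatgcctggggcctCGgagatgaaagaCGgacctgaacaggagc
Slfn9: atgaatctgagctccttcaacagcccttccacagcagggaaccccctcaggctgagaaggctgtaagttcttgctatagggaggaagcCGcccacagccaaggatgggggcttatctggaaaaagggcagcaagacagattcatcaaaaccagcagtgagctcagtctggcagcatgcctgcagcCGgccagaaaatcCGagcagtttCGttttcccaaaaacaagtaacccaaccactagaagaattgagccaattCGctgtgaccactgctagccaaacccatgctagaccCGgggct
Slfn8: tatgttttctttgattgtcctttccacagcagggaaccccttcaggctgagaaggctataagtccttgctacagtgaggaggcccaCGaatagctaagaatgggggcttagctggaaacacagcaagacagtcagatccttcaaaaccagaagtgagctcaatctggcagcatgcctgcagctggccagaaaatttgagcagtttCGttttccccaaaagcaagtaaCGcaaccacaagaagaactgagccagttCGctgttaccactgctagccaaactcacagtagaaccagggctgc

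The Slfn4 promoter sequence holds 7 CpGs, of which 6 had enough calls, and over these 6 the level was 93.1% of 160 calls in 60M-GS, against 6.22% of 225 calls in 5M-GS (difference 86.9 points, interval 80.5 to 90.8). Those of Slfn3 stood at 80.3% of 142 calls in 60M-GS, against 61.0% of 123 calls in 5M-GS over 5 CpGs (difference 19.3 points, interval 8.35 to 29.8). The Slfn9 promoter was unmethylated in both, at 0.787% in 60M-GS, against 0% in 5M-GS over 6 CpGs, where 0 of 241 calls in 5M-GS allows a level of up to 1.24% when 3 calls are taken as the limit and 1.57% by the Wilson interval. The Slfn8 sequence shown stood at 72.5% of 109 calls in 60M-GS, against 57.2% of 152 calls in 5M-GS over 4 CpGs (difference 15.2 points, interval 3.43 to 26.2). The sequence of a second annotated Slfn8 start, chr11:83020673-83020972, stood at 65.8% of 76 calls in 60M-GS, against 61.5% of 104 calls in 5M-GS (difference 4.25 points, interval -9.98 to 17.9), so the difference depended on the start taken. The Slfn8 CpG at -23, counted from the start of the sequence shown as 0, had 0% of 13 calls methylated in 60M-GS, against 4.35% of 23 calls in 5M-GS, beside CpGs that were mostly methylated. Whether the mice used carry this CpG was not tested, and it enters the Slfn8 levels. The sequences of Slfn9 and Slfn8 are identical at 252 of 312 alignment columns (80.8%), whereas those of Slfn4 and Slfn3 are identical at 174 of 352 columns (49.4%). The promoters of Slfn9 and Slfn8 thus differed in level in both tables despite their likeness in sequence.

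A short interferon response element, GAAA followed by any 2 bases and GAAA on either strand, was searched in the same windows. It is present in 3.44% of all 32851 RefSeq promoter sequences of this length, and among the Schlafen genes it is present in those of Slfn5, Slfn9 and Slfn8. The match in Slfn9 spans bases -45 to -36, counted from the annotated start as 0, and contains a CpG that was at 1.96% of 51 calls in 60M-GS, against 0% of 52 calls in 5M-GS. The match in Slfn8 spans bases -48 to -39, and its CpG was at 85.7% of 7 calls in 60M-GS, against 80.0% of 10 calls in 5M-GS, so at low depth. The Slfn4 window holds no such match, and it holds 1 match to the AP-1 motif TGANTCA, which 7.81% of all promoter sequences hold on either strand and which in the Schlafen genes is also in the window of Slfn14. The STAT motif TTCNNNGAA (8.30% of all promoters, either strand) and the E-box CACGTG (7.15%) are in none of these windows of the 8 genes. These matches describe letters and do not show binding.

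The Slfn4 5′ end, which lies in a gene of the intermediate class described mainly in macrophages and other myeloid cells, was methylated in 60M-GS and mostly unmethylated in 5M-GS. Within 1 kb on each side of its annotated start the level was 90.2% of 625 calls in 60M-GS, against 28.7% of 651 calls in 5M-GS, over 23 CpGs (difference 61.5 points, interval 57.1 to 65.5). The stretch was short. From 66 bases before to 437 bases after the outermost annotated start (chr11, position 83175172, slightly upstream of the start used for the promoter sequence), each of the 13 CpGs was individually called higher in 60M-GS, and together they stood at 91.7% of 373 calls in 60M-GS, against 7.59% of 435 calls in 5M-GS. Single CpGs in this core ranged from 82.1% to 97.1% in 60M-GS and from 0% to 17.6% in 5M-GS. The ranges did not overlap, but the core was bounded by its outermost called CpGs, which are chosen by their difference.

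Around this core the level stepped in 5M-GS and varied less in 60M-GS. The next 4 CpGs into the gene, at 592 to 818 bases, stood at 90.2% in 60M-GS, against 61.3% in 5M-GS (difference 29.0 points, interval 16.5 to 40.2). A further 4 CpGs, from 932 bases on, stood at 89.6% in 60M-GS, against 87.0% in 5M-GS, so the difference had closed to 2.59 points (interval -5.16 to 10.7). On the other side, the last 4 CpGs before the core stood at 80.2% of 81 calls in 60M-GS, against 71.0% of 62 calls in 5M-GS, an interval (-4.69 to 23.5) that includes 0. In 60M-GS the core, at 91.7%, was near the 89.5% of the whole gene.

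**Figure D1:**
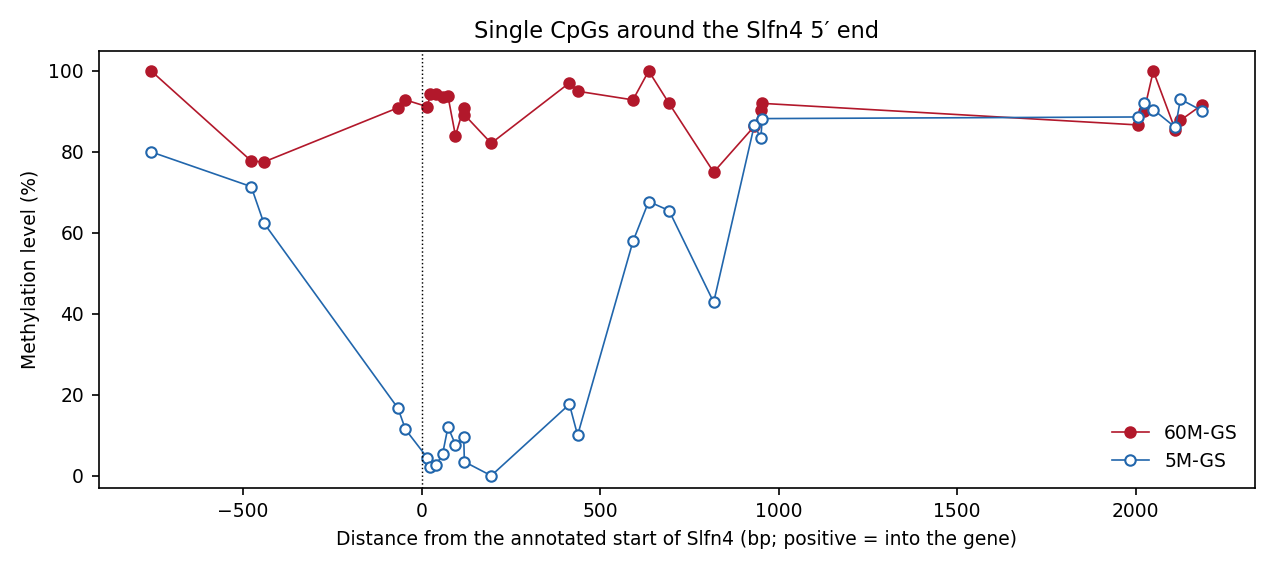
Methylation level (%) of single CpGs that had 5 calls or more at both ages against distance (bp) from the annotated start of Slfn4, for 60M-GS (filled) and 5M-GS (open). The 13 CpGs from -66 to 437 bp lie at 82.1% or above in 60M-GS and at 17.6% or below in 5M-GS, and the 2 profiles meet beyond 932 bp.

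In 1 kb tiles, the block of raised tiles around the Slfn4 start was 1 tile long, chr11:83175001-83176000, at 91.4% of 455 calls in 60M-GS, against 17.0% of 528 calls in 5M-GS. The next tested tile inside the gene, chr11:83177001-83178000, stood at 90.4% in 60M-GS, against 90.5% in 5M-GS. The tile between them held 3 usable CpGs and was not tested. The tile before the block, chr11:83174001-83175000, stood at 80.2% in 60M-GS, against 71.0% in 5M-GS and was not called. Farther upstream the block could not be followed, because 49 kb between Slfn1 and Slfn4 held no tile with 4 usable CpGs. That stretch has only 25 listed CpGs, of which 10 were deep enough, and these stood at 84.2% of 253 calls in 60M-GS, against 92.3% of 260 calls in 5M-GS. With tiles shifted by 500 bp the block was 2000 bp long, since its CpGs then fell into 2 tiles. The 3′ end of Slfn4, at the other end of its span of 15045 bases, stood at 87.8% in 60M-GS, against 89.2% in 5M-GS.

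Neither end of any other Schlafen gene was called. Of the 16 ends of the 8 genes 1 was called higher (6.25%), against 6.16% of 91385 gene ends in the genome, and 0 were called lower, against 0.317%. Nothing is read from these shares, or from those of tiles, runs and single CpGs given later, since the genes were chosen by this contrast. The median difference of the 16 was 0.353 points, and that of all gene ends 0.0693 points. Besides Slfn4 and Slfn3 the 5′ ends differed by -3.90 to 2.95 points.

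Slfn3, a gene of the same class studied in T cells and intestinal epithelium, is the next gene beyond the end of Slfn4. Its 5′ end was at 89.5% of 467 calls in 60M-GS, against 78.3% of 448 calls in 5M-GS (difference 11.2 points, interval 6.43 to 15.9), under the limit of 20 points. Within 500 bp on each side the difference was 17.0 points. Its 3′ end stood at 90.8% in 60M-GS, against 95.8% in 5M-GS. Slfn3 was the other Schlafen gene, beside Slfn4, whose 5′ end differed by over 10 points.

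The 5′ ends of the long members differed in level among themselves, and none was called between the tables. The 5′ end of Slfn9, a close relative of Slfn8, was at 4.80% of 938 calls in 60M-GS, against 3.61% of 969 calls in 5M-GS (difference 1.19 points, interval -0.631 to 3.04). That of Slfn8 stood at 61.3% of 524 calls in 60M-GS, against 59.7% of 499 calls in 5M-GS (interval of the difference -4.44 to 7.51). The 5′ end of Slfn5, whose human counterpart restrains interferon-stimulated transcription, stood at 17.1% of 907 calls in 60M-GS, against 16.6% of 884 calls in 5M-GS (interval -3.02 to 3.93). That of Slfn14, a ribosome-associated endoribonuclease of platelet and red cell precursors, stood at 90.3% of 206 calls in 60M-GS, against 90.0% of 221 calls in 5M-GS, over 6 CpGs (interval -5.58 to 5.97). Among these 4 genes, those with a low 5′ end were low in both tables. The promoter sequence of Slfn5 lies at an annotated start farther into the gene than the end used here. Its 6 CpGs stood at 2.63% of 152 calls in 60M-GS, against 1.64% of 122 calls in 5M-GS.

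Within 1 kb on each side of their starts the short members were mostly methylated at both ages. Slfn1 was at 91.3% of 540 calls in 60M-GS, against 88.3% of 618 calls in 5M-GS at its 5′ end (interval of the difference -0.581 to 6.42). Slfn2 was at 70.5% of 383 calls in 60M-GS, against 74.4% of 332 calls in 5M-GS (interval -10.4 to 2.69). Its 3′ end was the least methylated 3′ end of the cluster, at 27.0% in 60M-GS, against 24.1% in 5M-GS, while those of the other 7 genes lay between 72.2% and 90.8% in 60M-GS and between 75.6% and 95.8% in 5M-GS. The order of the 5′ ends in 60M-GS, from low to high, was Slfn9, Slfn5, Slfn8, Slfn2, Slfn3, Slfn4, Slfn14 and Slfn1, with intervals that overlap between each of the last 4. In 5M-GS it was Slfn9, Slfn5, Slfn4, Slfn8, Slfn2, Slfn3, Slfn1 and Slfn14, with overlapping intervals for Slfn2 and Slfn3 and for Slfn1 and Slfn14.

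**Figure D2:**
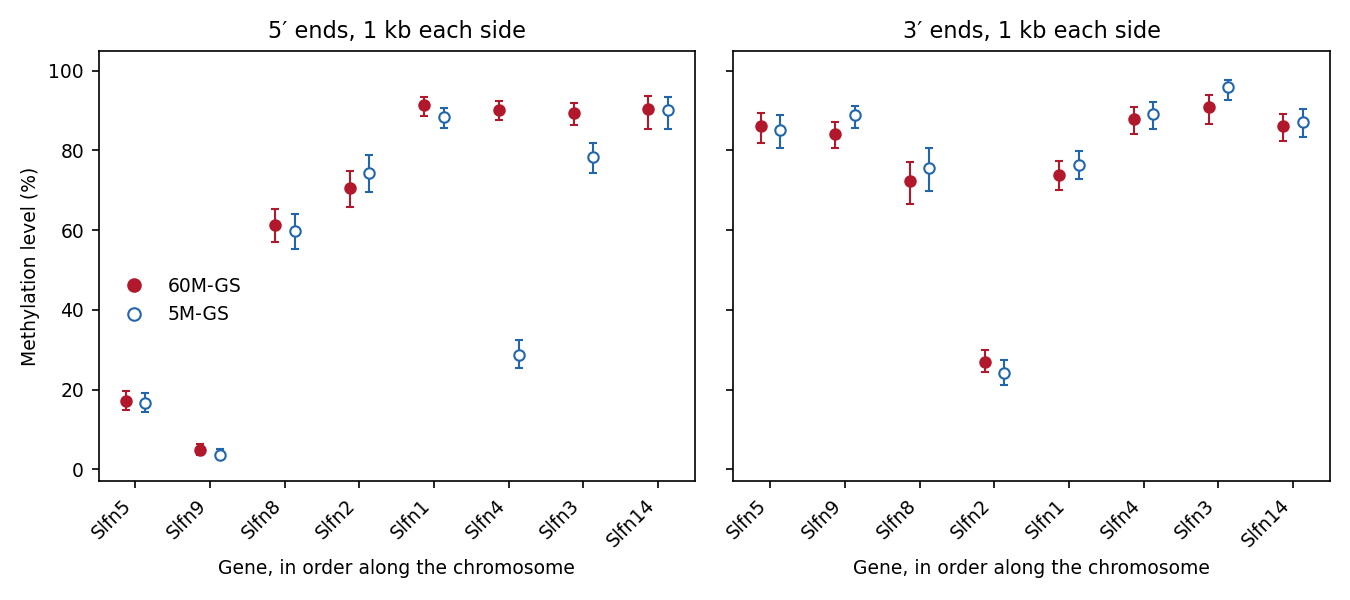
Methylation level (%) within 1 kb on each side of the 5′ and 3′ ends of the 8 Schlafen genes in 60M-GS (filled) and 5M-GS (open), with 95% Wilson intervals that cover counting error only. The Slfn4 5′ end stands at 90.2% in 60M-GS, against 28.7% in 5M-GS, and the other 15 ends lie within 11.2 points of each other between the tables.

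The cluster held 4 more raised stretches, so the Slfn4 block was 1 of 5. Of 230 tested tiles 9 were called higher in 60M-GS (3.91%), against 3.48% of 1689849 tiles in the genome, and 1 was called lower (0.435%), against 0.475%. The 9 tiles formed 5 separate stretches, with 164 kb between the Slfn4 block and the nearest one upstream and 47 kb between it and the nearest one downstream. The median difference over the 230 tiles was -0.476 points, and that over all tiles -0.452 points. All tested tiles between the stretches were uncalled, apart from the lower one. When the calls of a region were divided by its number of CpGs, to allow for CpGs that share a read, 1 raised tile was called, the one at Slfn4. Nothing is read from this, since the cluster was chosen by the Slfn4 difference and the share of all tiles that pass is not given.

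The first stretch lay inside Slfn9, chr11:82989001-82991000, beside its unmethylated start. It stood at 67.9% of 675 calls in 60M-GS, against 24.9% of 703 calls in 5M-GS. Its called CpGs ran from 1297 to 2273 bases into the gene, 13 of the 17 tested there. Here and at the stretches below, tested CpGs were counted between the outermost called ones, which are chosen by their difference. The next tile towards the start, chr11:82991001-82992000, was at 0.948% of 844 calls in 60M-GS, against 0.792% of 884 calls in 5M-GS. The difference at Slfn9 was therefore found on the gene-side shoulder of an unmethylated start and not at the start itself.

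The second lay deep inside Slfn8, chr11:83009001-83011000, with 12 called CpGs of 16 tested from 10479 to 11005 bases into the gene. Over its 2 tiles it stood at 77.4% of 929 calls in 60M-GS, against 46.2% of 931 calls in 5M-GS (difference 31.2 points, interval 26.9 to 35.3). Between the outermost of the called CpGs, which are chosen by their difference, the level was 89.8% of 431 calls in 60M-GS, against 29.2% of 490 calls in 5M-GS. The tiles on both sides stood at 87.9% and 92.0% in 60M-GS and at 88.8% and 95.1% in 5M-GS. Over its 2 tiles the stretch was thus below both neighbours in 60M-GS as well, and farther below them in 5M-GS. The span between the outermost called CpGs, at 89.8% in 60M-GS, lay between the levels of the neighbours there.

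The stretch inside Slfn14, chr11:83283001-83285000, stood at 89.3% of 769 calls in 60M-GS, against 47.3% of 782 calls in 5M-GS (difference 42.0 points, interval 37.8 to 46.0). Its first called CpG lay 2329 bases from the annotated 5′ end, and 15 of 18 tested CpGs were called over 640 bases. Between the outermost of these, which are chosen by their difference, the level was 89.2% of 548 calls in 60M-GS, against 34.1% of 557 calls in 5M-GS. The neighbouring tile nearer the 5′ end stood at 91.0% in 60M-GS, against 89.8% in 5M-GS, and the one on the other side at 85.5% in 60M-GS, against 94.9% in 5M-GS.

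The last stretch, chr11:83223001-83225000, covered the lower-coordinate end of AI662270, an annotated lncRNA gene with no strand in the table used here, between Slfn3 and Slfn14. It stood at 68.3% of 649 calls in 60M-GS, against 32.0% of 701 calls in 5M-GS, with 11 called CpGs of 22 tested over 1313 bases. This end of AI662270 was the single one called higher among the 32 ends of other genes in the window, at 69.4% in 60M-GS, against 37.3% in 5M-GS. The other genes include Slfn10-ps, a Schlafen pseudogene by its name, whose upper-coordinate end was unmethylated at both ages, at 1.61% of 310 calls in 60M-GS, against 1.33% of 301 calls in 5M-GS. The span of Gm11424, a pseudogene between Slfn5 and Slfn9, stood at 14.3% of 652 calls in 60M-GS, against 2.77% of 686 calls in 5M-GS, and its ends were not called. Of the remaining genes, Unc45b, Slfn5os, Mir7679, Gm11425, Gm20234, Gm51911, Gm38922, Gm38924, Gm11427, Gm23444, AA465934, AI450353 and Snord7 had no called end inside the window.

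**Figure D3:**
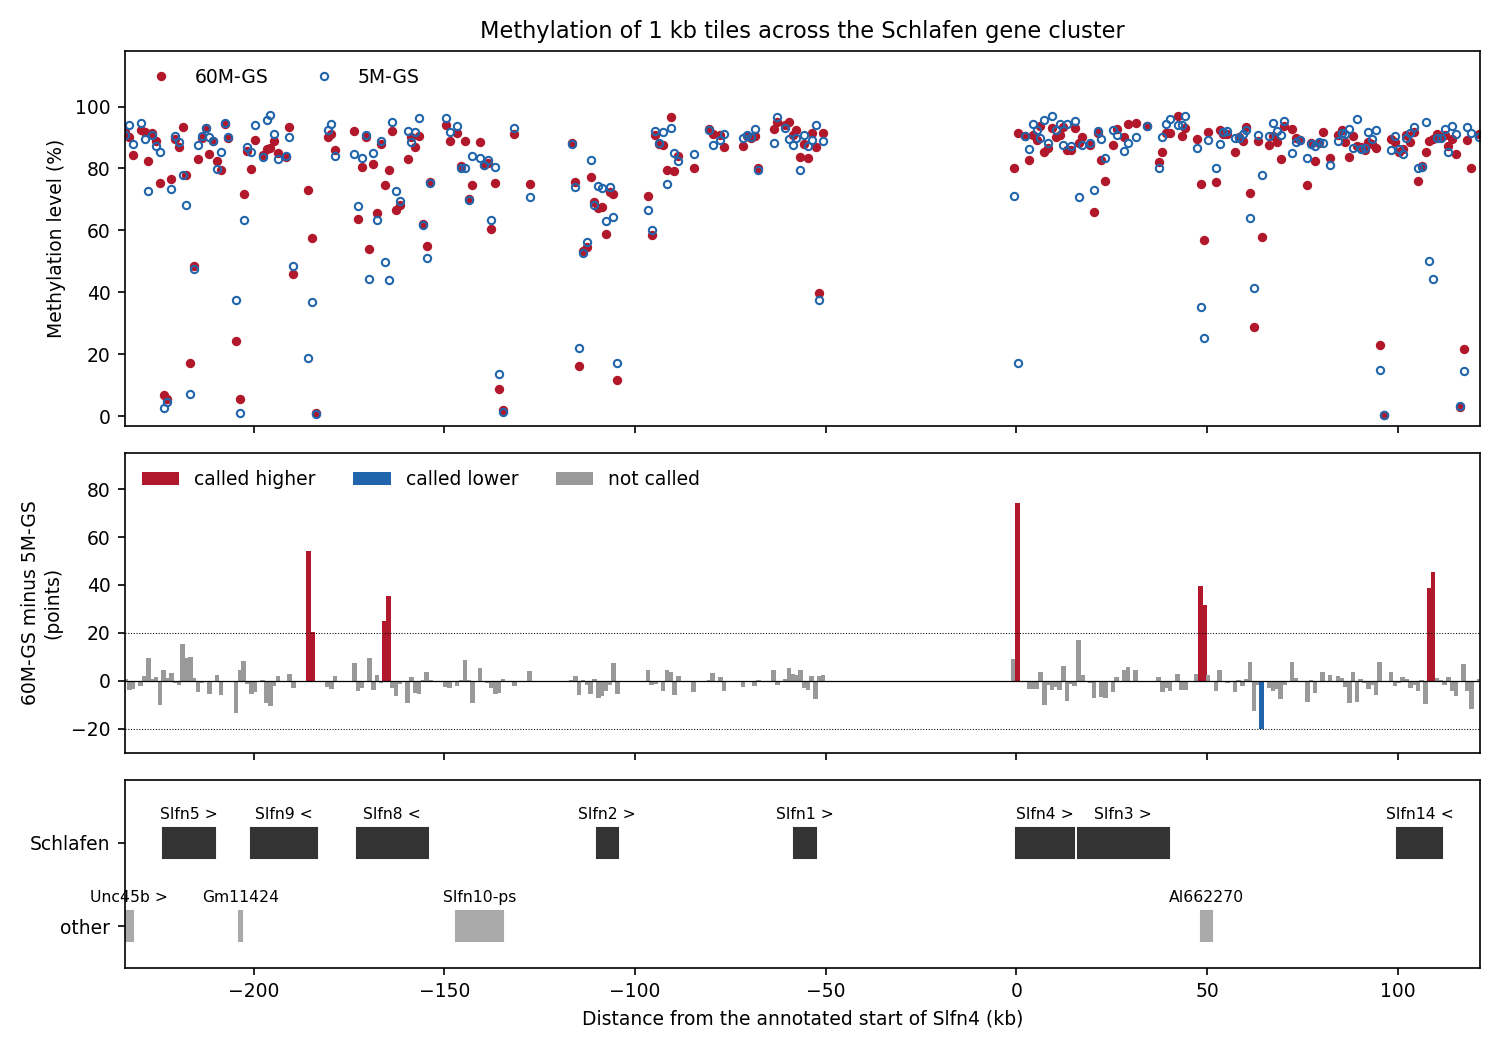
Methylation level (%) of the 230 tested 1 kb tiles (top), their difference between 60M-GS and 5M-GS in points (middle, dotted lines at 20 points) and the genes (bottom, arrow heads give the strand where known; not every gene is drawn), against distance (kb) from the annotated start of Slfn4. The 9 raised tiles form 5 narrow stretches, at Slfn9, Slfn8, Slfn4, AI662270 and Slfn14, and no tested tile lies in the 49 kb before the tile next to Slfn4.

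**Figure D4:**
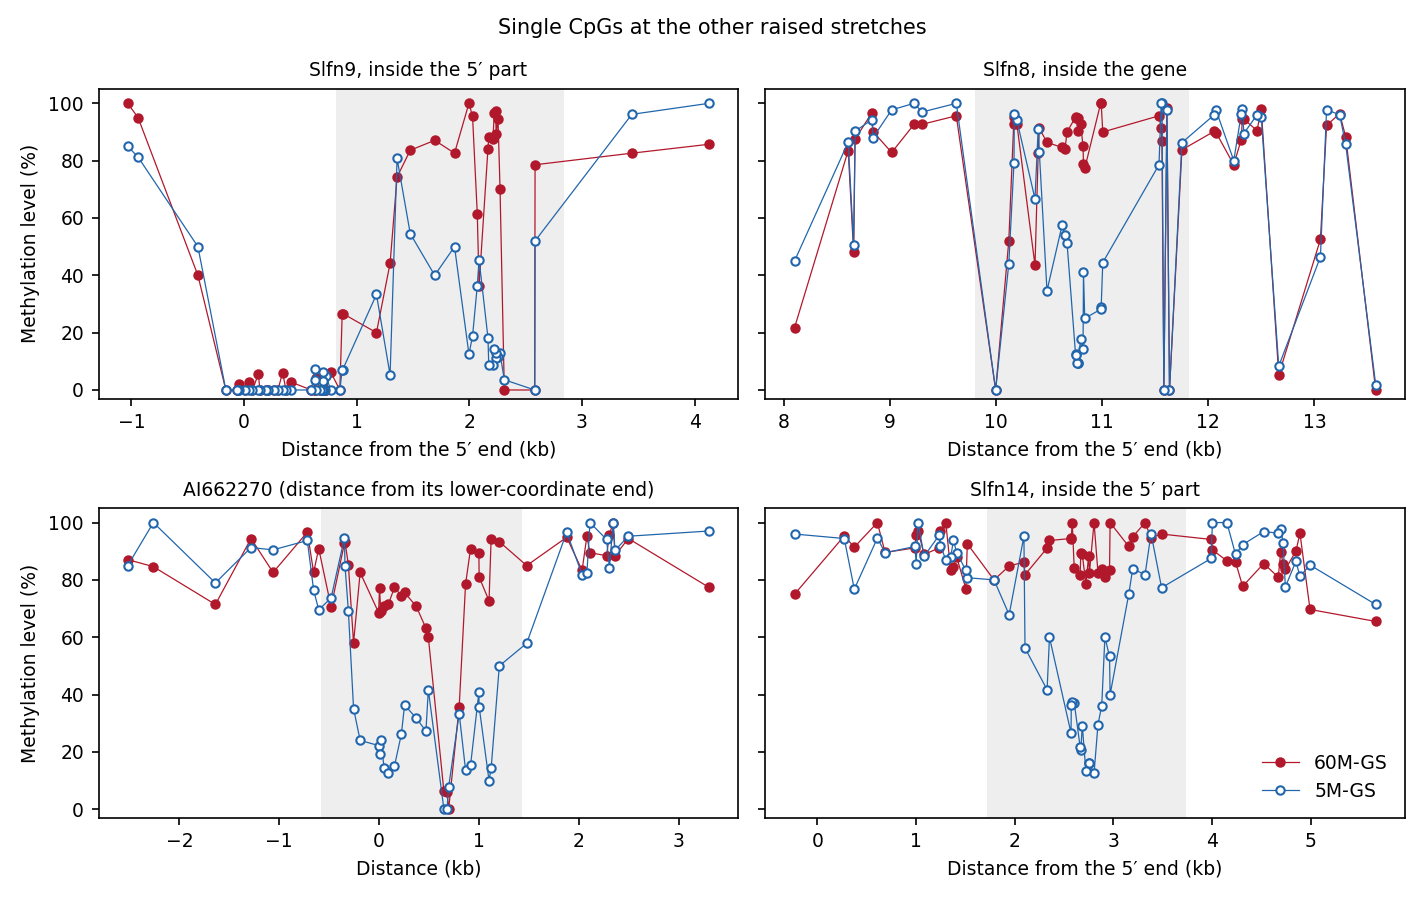
Methylation level (%) of single CpGs that had 10 calls or more at both ages around the 4 other raised stretches (grey, 2 kb each), against distance (kb) from the 5′ end of Slfn9, Slfn8 and Slfn14 and from the lower-coordinate end of AI662270, for 60M-GS (filled) and 5M-GS (open). At Slfn9 both profiles are near 0 around the start and part beyond it, and at Slfn8 and Slfn14 the called CpGs are lower in 5M-GS than in 60M-GS. Over its 2 tiles the Slfn8 stretch, at 77.4% in 60M-GS, also lies below its neighbouring tiles there. The span between its outermost called CpGs, at 89.8% in 60M-GS, lies between the levels of those tiles.

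The tile called lower, chr11:83239001-83240000 between AI662270 and Gm38924, stood at 57.9% of 114 calls in 60M-GS, against 78.0% of 91 calls in 5M-GS over 5 CpGs. Its difference, -20.1 points (interval -31.8 to -7.24), only just passed the limit. With each CpG weighted equally the levels of this tile were closer, 62.3% in 60M-GS and 66.5% in 5M-GS. Just inside the limit on the other side was the Slfn9 tile chr11:82990001-82991000 at 20.6 points, and just outside it the tile that holds the Slfn3 start at 17.2 points.

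Grouped by level in 5M-GS, the raised tiles were mostly partly methylated there. Of 19 tiles from 10% to under 50% in 5M-GS, 8 were called higher (42.1%), against 31.7% of such tiles in the genome. Of the 8 tiles under 10% in 5M-GS 0 were called, against 7.38%, and their levels were 0.334% to 17.3% in 60M-GS and 0.464% to 7.32% in 5M-GS. These tiles include the starts of Slfn5 and Slfn9 and the upper-coordinate end of Slfn10-ps. The ninth raised tile was at 50.1% in 5M-GS. The classes use the 5M-GS level that also enters the difference.

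**Figure D5:**
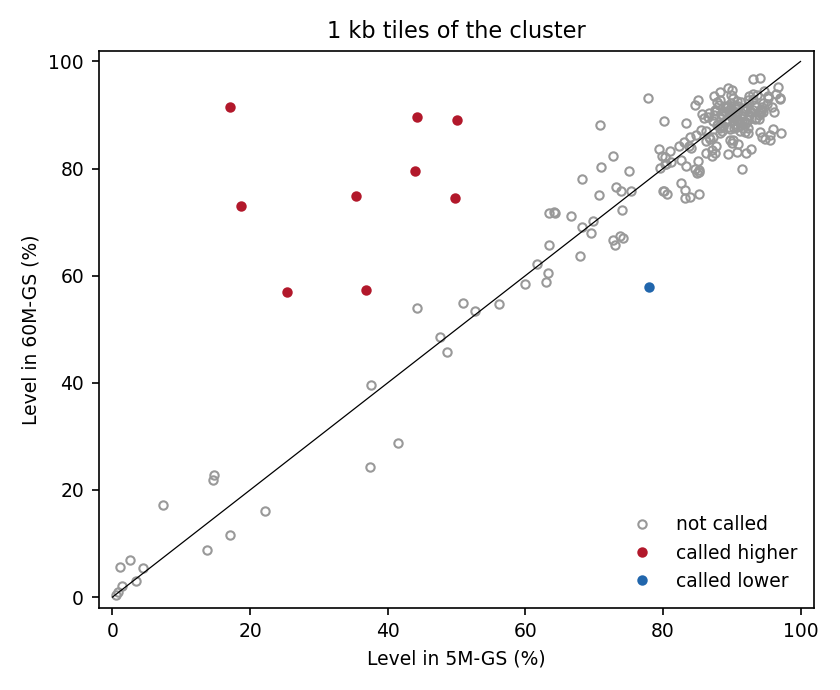
Level of each tested 1 kb tile of the cluster in 60M-GS (vertical, %) against its level in 5M-GS (horizontal, %), with equal levels on the line. The 9 tiles called higher all lie at 17.0% to 50.1% in 5M-GS, and the 8 tiles under 10% in 5M-GS lie at 17.3% or below in 60M-GS.

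Over the whole window the level was 74.9% of 57143 calls in 60M-GS, against 72.5% of 56391 calls in 5M-GS (difference 2.41 points, interval 1.90 to 2.92). Without the 9 raised tiles the remaining 305 tiles stood at 74.7% in 60M-GS, against 75.1% in 5M-GS, a difference of -0.380 points, a comparison that leaves out tiles for their outcome and so only shows where the calls lie. The spans of the genes with a raised stretch differed by 9.20 points (Slfn14), 8.83 points (Slfn9), 8.38 points (Slfn4) and 4.61 points (Slfn8). The spans of Slfn1, Slfn2, Slfn3 and Slfn5 differed by -1.36 to 0.242 points, with intervals that include 0. With each CpG weighted equally, those of Slfn2 and Slfn5 differed by 3.41 and 2.34 points, and those of Slfn9 and Slfn4 by 6.43 and 6.14 points.

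Single called CpGs lay mostly in the same places. With 10 calls or more required at both ages, 72 of 1966 CpGs were called higher (3.66%), against 2.02% of 15332174 in the genome, and 0 were called lower, against 0.215%. Of the 72, 64 lay in the 5 stretches. The other 8 comprised 2 inside Slfn5, 2 near the 3′ end of Slfn2, 1 inside the lncRNA AA465934 and 3 inside Gm11424. Of the 2 at Slfn2, which lie 5 bases apart, one stood at 85.7% in 60M-GS, against 38.1% in 5M-GS. The other had 21 methylated and 9 unmethylated calls in 60M-GS, with 1 methylated and 20 unmethylated calls in 5M-GS.

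The cluster is poor in CpG-dense runs. When a run had to hold 20 CpGs or more with no gap over 50 bp, 1 run lay in the window, at the start of AA465934, and it was unmethylated at both ages (0.348% in 60M-GS, against 0.605% in 5M-GS), while 5.13% of such runs in the genome were called higher. When 10 CpGs with no gap over 100 bp sufficed, 4 of 34 runs were called higher (11.8%), against 9.66% in the genome, and 0 lower, against 1.12%. The 4 lay in the stretches at Slfn4, Slfn9, Slfn8 and Slfn14. The one at Slfn4 stood at 90.6% in 60M-GS, against 6.37% in 5M-GS, and the one at Slfn9 at 77.1% in 60M-GS, against 14.2% in 5M-GS. Those at Slfn8 and Slfn14 stood at 88.0% and 88.6% in 60M-GS and at 27.0% and 32.6% in 5M-GS. The run at the Slfn3 start, with 12 CpGs, stood at 87.9% in 60M-GS, against 70.1% in 5M-GS and was not called.

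Depth was similar in both tables over these genes. The median number of calls per listed CpG of a gene ran from 22 to 27 in 60M-GS and from 21 to 27 in 5M-GS, and its ratio of 60M-GS to 5M-GS was 1.02 in Slfn4 and 0.852 to 1.17 over the 8 genes. Slfn8 had the smallest share of CpGs with 5 calls or more at both ages, 84.7%, and Slfn1 the largest, 100%. Slfn8 and Slfn9 have close copies in the cluster, and the part of misplaced reads in their values was not tested.

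Other interferon-stimulated genes were read as the pathway to which Schlafen genes belong, from a list of 40 of which 38 are protein-coding in the annotation. At their 5′ ends 0 of 38 were called higher, against 3.97% of 20529 protein-coding genes, and 1 was called lower (2.63%), against 0.19%. Nothing is read from these shares, since the list was chosen with earlier results of these data known. The gene called lower was Oasl2, an interferon-induced relative of the oligoadenylate synthetases, on chromosome 5, at 9.97% of 993 calls in 60M-GS, against 51.5% of 909 calls in 5M-GS (adjusted p = 7.80e-90 by Fisher's exact test between the pooled libraries; its difference of -41.5 points has an interval of -45.2 to -37.7). The test counts calls, so its p does not measure the spread between replicates. The median difference of the 38 was 0.235 points, and that of all protein-coding genes 0.390 points. The largest difference upwards was at Rsad2, the antiviral enzyme viperin, at 31.2% in 60M-GS, against 13.7% in 5M-GS, and it was under the limit of 20 points. At the ends taken as 5′ ends, none of the 38 had an upward difference of the size seen at Slfn4. Nothing is read from this, since Slfn4 was chosen for its large difference. For 8 of the 38 the annotation used gave no strand, and the end with more CpGs was taken. Of these, Zbp1, a sensor of Z-form nucleic acids, stood at 85.8% in 60M-GS, against 42.0% in 5M-GS, at the end not taken. The 3′ end of Oasl1, another relative of the synthetases, stood at 90.1% in 60M-GS, against 51.4% in 5M-GS.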

How the data were processed

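The labels' protocols name post-bisulfite adaptor tagging for the libraries. The submitters' processing notes name Bismark 0.10.0 and the mm10 build, without their roles. For filters, deduplication and strand merging, such steps were not given in the sources used here. Each deposited table gives, per CpG, the counts of methylated and of unmethylated calls and the percent of methylated calls that the authors computed from them. The counts were used as deposited, and the percent served as a check: it equalled the counts' percent within 1e-06 at every CpG of chromosome 11. Each table pools the 2 replicates of an age. Positions are those of the C on the plus strand, counted from 1.

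Genes, strands and promoter sequences came from RefSeq (GRCm38.p6), with a strand for 26794 of 49554 genes and a promoter sequence for all 8 Schlafen genes. Exons were not used. Regions with at least 4 CpGs of at least 5 calls in both tables were compared genome-wide with a two-sided Fisher's exact test, and p-values were adjusted by Benjamini and Hochberg's method over all 1 kb tiles, all gene ends or all CpG runs, and single CpGs with at least 10 calls likewise. Wilson intervals, and Newcombe's for differences, cover counting error only, since calls on 1 read are not independent. The 5′ end of protein-coding genes without a strand, 8 of the 38 interferon-stimulated genes among them, was the end with more CpGs. Raised stretches are adjoining called tiles, and tiles with under 4 CpGs were passed over. Named genes were the 8 Schlafen genes, the other annotated genes in the window, 1 of which is not reported here, and up to 4 called interferon-stimulated genes. Rsad2, Zbp1, Oasl1 and the single CpGs were chosen after their values were seen. The genes and lists were chosen with earlier results of these data known. Python 3.11.15, NumPy 2.4.6, SciPy 1.17.1, Biopython 1.88 and Numba 0.67.0 were used, and the tests were tried on simulated data.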

Additional observations from a re-analysis of the deposited data

How the results depend on the processing

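The difference at the Slfn4 5′ end stayed between 54.9 and 77.8 points over 6 alternatives (call minimum, depth, averaging, width). None of the other 15 ends was called where 1 of these 6 alternatives tested them anew, but Slfn3 was called with a lower minimum difference, given below. Averaging changed only the difference and ran no new test. Within 500 bp the Slfn14 5′ end had too few CpGs to be tested. Dividing the calls of a region by its number of CpGs, a conservative test, left 1 raised tile, the one at the Slfn4 start, and 0 lower ones, and the other 8 raised tiles were not called by it. The Slfn4 and Oasl2 5′ ends passed it, as did the Zbp1 end not taken as its 5′ end (85.8% in 60M-GS, against 42.0% in 5M-GS). With a minimum difference of 10 points, 2 Schlafen ends (Slfn4 and Slfn3) and 2 interferon-stimulated ends were called higher. At that setting 3 interferon-stimulated ends and 3 tiles were called lower. For this and the other changed settings, apart from the looser runs, no share over the genome is given, so nothing is read from the counts. The tile called lower was lost (0) with 30 points, 10 CpGs per region, shifted tiles and tiles of 500 bp. The Slfn4 block was 2000 bp long with shifted tiles. Within 500 bp of the 5′ ends 2 interferon-stimulated genes were lower, Oasl2 and Dhx58. The looser CpG runs gave 4 called higher. With a class limit of 30% in 5M-GS in place of 50%, both limits chosen after seeing the data, 3 raised tiles in place of 8 were in the class. No other count moved by over 1.5 times, and the difference over the whole window stayed within its interval.

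No paired analysis was possible because the replicates of each age are pooled in 1 table, and for the same reason leaving out a replicate was not run. At this depth, differences of a few points at a gene end mostly lie within counting error.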
